A study of Mus musculus with 16 samples.

Results

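White and brown adipose tissue were compared with the 6 other tissues of the series by short-read RNA-Seq. Adipose tissue gave 4 of the 16 libraries, which were white adipose fed, white adipose fasting, brown adipose fed and brown adipose fasting. The other 12 were the fed and the fasting library of muscle, liver, heart, spleen, kidney and lung. The comparison asked which RNAs white and brown fat share against the rest of the body, and the response to fasting was not part of it. All groups were male wild-type mice of the C57BL/6 strain, acquired at 12 weeks, 3 per group, either on standard chow with free access to food or fasted for 24 h. Equal amounts of tissue from the 3 mice were combined for extraction, so that each tissue and treatment has 1 library and no replicate error. The fat depots that were dissected are not given in the sources used here, and all 8 tissues came from the same pair of mouse groups.

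White adipocytes store triglyceride in 1 large droplet and release fatty acids and hormones such as leptin and adiponectin into the blood. Brown adipocytes hold many small droplets and many mitochondria, and burn fatty acids to make heat through the uncoupling protein Ucp1. Both are formed under the nuclear receptor Pparg and members of the C/EBP family, and both carry the perilipin coat, the lipases and the hormone receptors through which insulin and adrenaline set storage and release.

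Library totals lay between 14245178 and 36069968 counts, and 23059 of 55385 genes passed the filter on low counts. Levels are given as CPM, read counts relative to the library total after scaling by TMM factors, and levels of different genes are set side by side only per kilobase of gene length. In the adipose libraries 3 counts, the lowest number read here as a level, corresponded to 0.0779 to 0.205 CPM. The labels of the adipose libraries were checked with 10 adipocyte markers, which summed to 11733 to 19400 CPM in the 4 adipose libraries and to 42.2 to 1113 CPM in the 12 others. Of these markers, 9 were above the 12 other libraries in every adipose library, and the exception was Lep. In whole tissue, fewer cells of a type and less RNA per cell cannot be told apart.

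Of the 23059 genes tested, 366 were higher in every adipose library than in any of the 12 other libraries, and 114 were lower in every adipose library than in any other. These shares were 1.59% and 0.494% of the genes tested. The numbers were 559 higher and 16 lower with library totals, and 697 higher and 10 lower with TPM. The 366 genes are called genes above, and the 114 genes below, hereafter. The 366 genes took 8.84% of all counts in fed and 8.04% in fasting white adipose, 11.005% in fed and 11.1% in fasting brown adipose, and 0.334% to 1.31% in the other libraries. The desaturase gene Scd1, described below, held a large part of the share in brown adipose and in fed liver. Among them were 240 protein-coding genes, or 65.6% against 70.0% of the genes tested, with 32 lincRNAs and 26 antisense RNAs. In 200 of them the mean over the 4 adipose libraries reached 10 CPM. The margin is the lowest adipose level divided by the highest level elsewhere. Its median was 1.41, it was at least 2 in 120 genes, and it was at least 10 in 17. Just inside were Vamp2, Smurf1 and Dlc1, with margins of 1.0009, 1.013 and 1.015. Just outside were Ypel5, Gm37305 and Dtx2, in which the lowest adipose library reached 0.994, 0.999 and 0.997 of the highest other library.

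**Figure D1:**
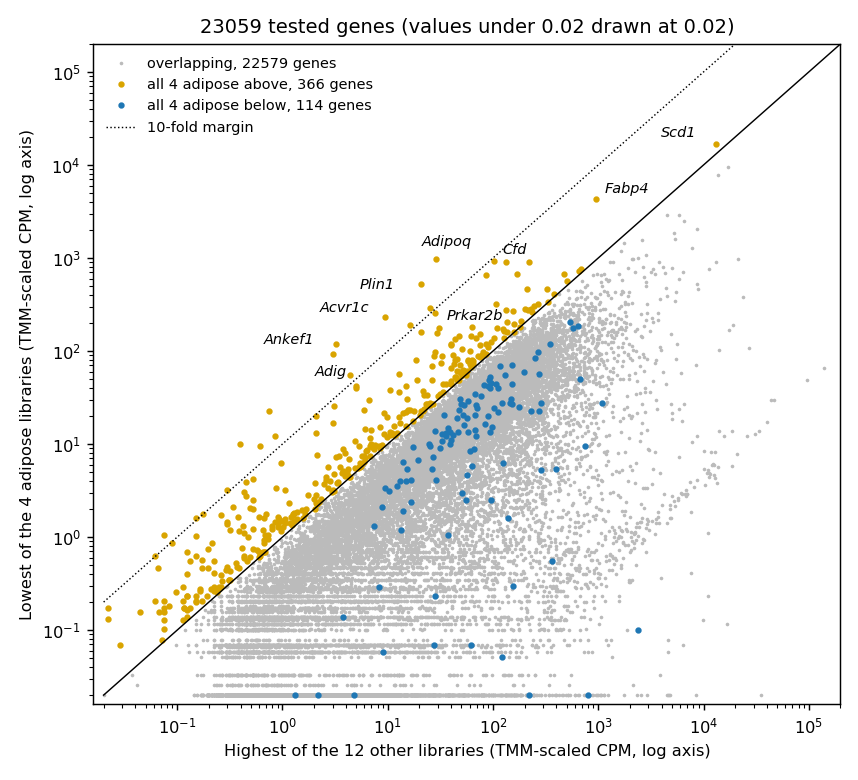
Lowest level in the 4 adipose libraries against the highest level in the 12 other libraries for each gene tested, both in TMM-scaled CPM on log axes. The 366 genes above lie over the solid line of equal levels, 17 of them at or over the dotted line of a 10-fold margin, and the 114 genes below are the blue points, whose highest adipose library is under the lowest other library.

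A test with the tissue as the unit, 2 adipose tissues against 6 others, called no gene. In edgeR's quasi-likelihood test on the summed counts of each tissue, 0 genes were higher and 0 were lower at an adjusted p under 0.05, a share of 0.0% each way. At an unadjusted p under 0.05 the same test gave 594 higher and 117 lower genes, and DESeq2 called 183 higher and 57 lower on the same sums. The lowest adjusted p was 0.10, reached by the kinase Sik2 and the microRNA gene Mir6392. Tissues of 1 class differ widely from each other, and the biological coefficient of variation in this fit was 1.06. A limma fit to the 16 libraries with the tissue as a random block called 72 genes higher, a share of 0.312%, and 0 genes lower. At an unadjusted p under 0.05 this fit gave 911 higher and 69 lower genes. The 72 calls, which include Sik2 but not Mir6392, came from an alternative to the main test, and they are named as such below. Of the 72 genes, 67 were among the genes above, 56 of these had a margin of at least 2, and 60 of the 72 were protein coding. The number called was 25 without spleen and 45 without heart, and it was 51 to 73 without muscle, liver, kidney or lung in turn. These fits kept the correlation within tissues of the full fit. P-values of the edgeR test measure only the spread between these pooled tissues. Those of the limma fit rest also on the spread between the fed and the fasting library of a tissue. They assume the same correlation within tissues for all genes. Neither fit measures the spread between mice.

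Adipoq, Cfd and Fabp4, markers of fat cells, were above in all 4 adipose libraries, which were taken as adipose from their labels and not from these genes. Adipoq encodes adiponectin, a hormone of fat cells that raises insulin sensitivity (ENSMUSG00000022878.5, GRCm38 chr16:23146536-23158028, plus strand). Its level was 1940 CPM in fed and 1600 CPM in fasting white adipose, and 1071 CPM in fed and 973 CPM in fasting brown adipose. In the other 12 libraries Adipoq lay between 0.299 and 29.0 CPM with a median of 6.46 CPM, and the highest were fed muscle at 29.0 CPM and fasting muscle at 13.0 CPM. The lowest adipose library was 33.6 times the highest other library. The log2 fold change was 7.56 ± 1.20 (SE) with an adjusted p of 0.20 in the edgeR test, and 8.44 ± 0.86 with an adjusted p of 0.00022 in the limma fit.

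Cfd encodes adipsin, the protease that activates the alternative complement pathway (chr10:79890853-79892655, plus strand). It reached 6234 and 4842 CPM in fed and fasting white adipose and 1112 and 935 CPM in fed and fasting brown adipose. Elsewhere it ranged from 0.449 to 102 CPM, with a median of 20.7 CPM and again with fed muscle on top. White adipose exceeded brown adipose by 2.44 on the log2 scale for Cfd, and both stood over all other libraries. The limma fit gave 7.39 ± 1.32 with an adjusted p of 0.018, and the edgeR test gave 6.85 ± 1.36 with an adjusted p of 0.27.

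Fabp4, which carries fatty acids inside the cell (chr3:10204088-10208576, minus strand), showed the smallest difference between white and brown among the 3 markers. Its levels were 4362 and 4420 CPM in white and 5516 and 6463 CPM in brown adipose. The other libraries held 2.49 to 949 CPM, with a median of 42.9 CPM, and the highest were fasting and fed heart at 949 and 407 CPM. The margin was therefore 4.60, lower than for Adipoq and Cfd. Its adjusted p was 0.90 in the edgeR test and 0.026 in the limma fit.

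**Figure D2:**
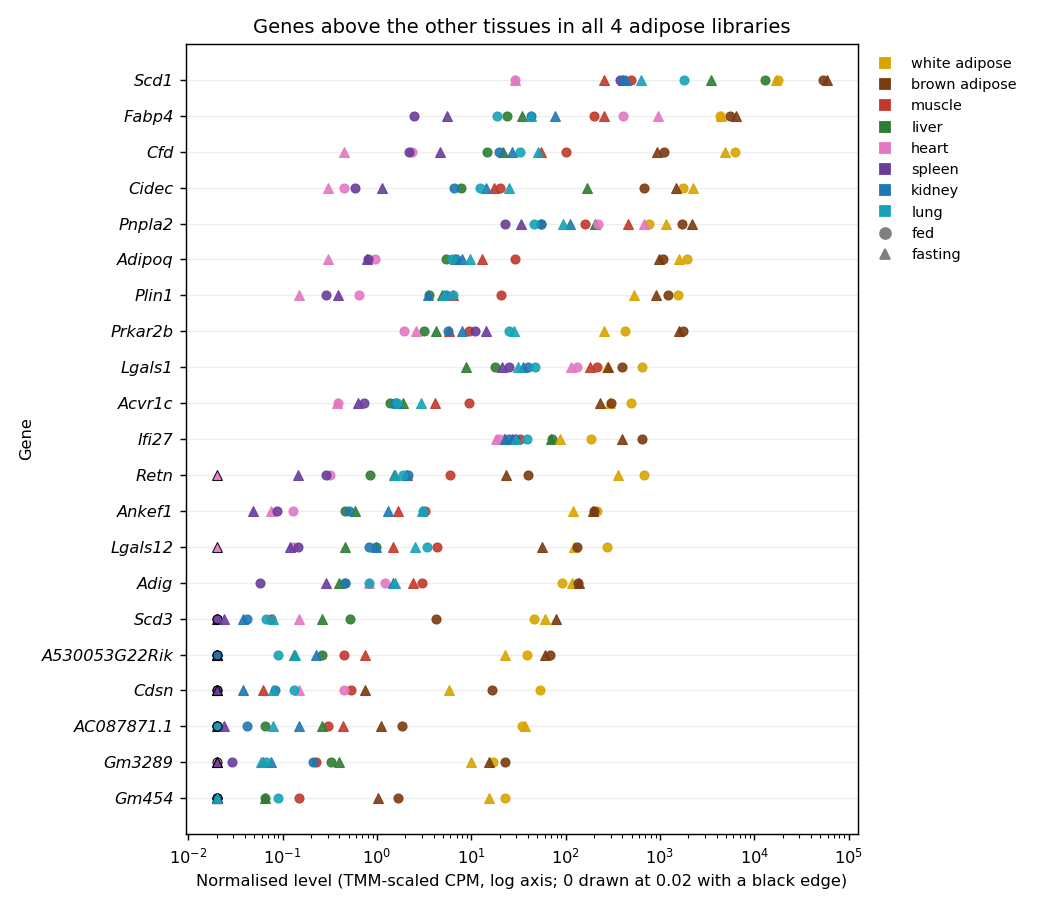
Level of 21 genes above in each of the 16 libraries, in TMM-scaled CPM on a log axis, with colour for the tissue and shape for the treatment. In every row the white and brown adipose points are to the right of all others, and fed muscle is often the next one, as for Adipoq at 29.0 CPM and Cfd at 102 CPM.

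The 15 genes above with the largest fold change were Scd3, Gm454, A530053G22Rik, Plin1, Adipoq, Retn, AC087871.1, Ankef1, Acvr1c, Cdsn, Gm3289, Cfd, Lgals12, Adig and Prkar2b, in this order. Their log2 fold changes in the edgeR fit ran from 8.81 for Scd3 to 6.63 for Prkar2b, and none had an adjusted p under 0.05. All 15 remained above under TMM factors, library totals and TPM. Plin1 coats the lipid droplet and holds lipases off it until the cell is stimulated (chr7:79720218-79732903, minus strand). It was at 1565 and 531 CPM in white and 1210 and 905 CPM in brown adipose, against 0.150 to 20.7 CPM elsewhere, with a median of 4.22 CPM. White and brown did not separate for Plin1, with means of 1048 and 1057 CPM.

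Retn encodes resistin, a secreted factor of mouse fat cells. It was at 680 and 357 CPM in white but at 39.7 and 23.3 CPM in brown adipose, and the other libraries reached 5.91 CPM at most. Its margin of 3.94 was set by fasting brown adipose. Acvr1c, the activin receptor ALK7, was at 498 and 296 CPM in white, 304 and 230 CPM in brown, and 0.374 to 9.43 CPM elsewhere. Lgals12, a galectin of the lipid droplet, was at 273 and 122 CPM in white and 132 and 55.5 CPM in brown adipose, and its highest other library was fed muscle at 4.34 CPM. Adig, or adipogenin, was at 92.1 and 116 CPM in white, 135 and 137 CPM in brown, and at most 2.99 CPM elsewhere.

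Prkar2b, a regulatory subunit of the cyclic AMP-dependent kinase, had the reverse order, with 421 and 257 CPM in white and 1749 and 1576 CPM in brown adipose. Its highest other library was fasting lung at 28.3 CPM. Ankef1, an ankyrin repeat protein, had the widest margin of all genes above, 36.8. It was at 215 and 119 CPM in white, 201 and 195 CPM in brown adipose and at most 3.22 CPM elsewhere. Scd3, a fatty acid desaturase, was at 45.8 and 60.8 CPM in white and 4.22 and 79.8 CPM in brown adipose, with 0.521 CPM in fed liver as the highest other level. Scd3 and Scd1 are close paralogs, and how reads that fit both were counted is not given, so their split is uncertain. Cdsn stood at 53.4, 5.81, 16.6 and 0.753 CPM in fed white, fasting white, fed brown and fasting brown adipose, so its place rests on a margin of 1.44.

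Several of the genes with the largest differences were noncoding. A530053G22Rik, a processed transcript on chromosome 6, was at 38.6 and 22.5 CPM in white and 67.9 and 59.97 CPM in brown adipose, against at most 0.740 CPM elsewhere. Gm3289, a lincRNA also on chromosome 6, was at 16.9 and 9.89 CPM in white and 22.9 and 15.5 CPM in brown adipose. Its highest other level was 0.394 CPM in fasting liver, and 173 of its exonic bases overlap Gm30270 on the opposite strand. Gm454 was at 22.9 and 15.5 CPM in white but 1.68 and 1.03 CPM in brown adipose, and AC087871.1 at 34.4 and 36.7 CPM in white but 1.85 and 1.10 CPM in brown adipose. Both lincRNAs were at or under 0.432 CPM in the other libraries. The libraries were strand-specific, but the strand setting of the counting is not given, so reads of overlapping antisense genes could not be assigned with certainty.

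Per kilobase, the 10 highest genes above were Scd1, Cfd, Fabp4, Adipoq, Cidec, Pnpla2, Lgals1, Prkar2b, Plin1 and Ifi27. Scd1, the desaturase that makes oleate from stearate, had a mean of 7537 CPM per kilobase over the adipose libraries, followed by Cfd at 3558 and Fabp4 at 1156 CPM per kilobase. Scd1 was at 17952 and 16928 CPM in white and 53264 and 59332 CPM in brown adipose. Fed liver came next at 13018 CPM and fasting liver at 3464 CPM, while heart was lowest at 29.1 CPM. Its margin was only 1.30, and neither fit called it, with adjusted p of 0.95 by edgeR and 0.20 by limma. Lgals1, galectin-1, was at 640 and 277 CPM in white and 393 and 279 CPM in brown adipose, with fed muscle at 213 CPM as the highest other library. Ifi27, an interferon-induced gene, was at 186 and 88.0 CPM in white and 641 and 396 CPM in brown adipose, against at most 71.9 CPM in fed liver.

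The genes whose levels over the 16 libraries were most like a marker came from the same set. Likeness was Pearson's r of log2 levels and is a description, since most of it comes from the contrast of adipose with the rest. Plin1 (r = 0.993), Acvr1c (0.990) and Lgals12 (0.980) were most like Adipoq. Adipoq (0.980), Plin1 (0.962) and Lgals12 (0.959) were most like Cfd. Fabp4, with its levels in heart and muscle, was most like Pnpla2 (0.964), the lincRNA Gm10010 (0.957) and Ebf2 (0.946).

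The lists below were described by how many of their tested members were above or below. The shares over all genes tested were 1.59% above and 0.494% below. The lists were written with earlier results of these data known, and several hold genes chosen as genes of fat cells. A larger share in such a list is therefore a description and not a test. Of 20 genes of the lipid droplet and its lipases, 8 (40%) were above and 0 below, 15 had a positive fold change, and the median log2 fold change was 1.60 against -0.28 over all genes tested, and 0.85 without brown adipose. The limma fit called 4 of them higher (Plin1, Lipe, Aqp7 and Bscl2). Lipe, hormone-sensitive lipase, was at 1251 and 914 CPM in white and 1387 and 1083 CPM in brown adipose, with fasting heart at 133 CPM as the highest of the others. Its limma adjusted p was 0.030. Cidec, which fuses droplets, was at 1769 and 2215 CPM in white and 677 and 1490 CPM in brown adipose, and fasting liver at 168 CPM stood apart from the 11 other libraries, which had 25.0 CPM or less.

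Pnpla2, the lipase that takes the first fatty acid off triglyceride, was at 769 and 1156 CPM in white and 1727 and 2162 CPM in brown adipose, only 1.13 times fasting heart at 682 CPM. Mgll, which splits the last fatty acid from glycerol, and Abhd5, the activator of Pnpla2, had margins of 1.12 and 1.57. Aqp7, the channel through which fat cells export glycerol, was at 139 to 243 CPM in adipose and at most 69.0 CPM elsewhere, in fasting heart. Bscl2, or seipin, was at 104 to 154 CPM in adipose and at most 50.6 CPM elsewhere. Plin4, another coat protein, overlapped, since fasting muscle at 1660 CPM was over brown adipose at 1190 and 1178 CPM.

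Of 27 receptors and signalling proteins of fat cells, 10 (37.0%) were above and 1 was below. The median log2 fold change was 2.16 (1.33 without brown adipose, 1.43 without white adipose and 3.53 in the limma fit), and 24 of 27 were positive. The limma fit called 5 (Acvr1c, Adrb3, Pde3b, Trarg1 and Tshr). Adrb3, the receptor for noradrenaline that starts lipolysis and heat production, was at 609 and 438 CPM in white and 240 and 80.7 CPM in brown adipose, against at most 18.6 CPM in fed liver. Tshr, the thyrotropin receptor, was at 194 and 80.3 CPM in white and 33.6 and 25.4 CPM in brown adipose, and at most 3.12 CPM elsewhere. Hcar1, the lactate receptor, lay at 7.19 to 56.6 CPM in adipose and up to 3.20 CPM elsewhere, and Gipr, the receptor of a gut hormone, at 2.78 to 6.85 CPM in adipose and up to 0.447 CPM elsewhere. Adora1 and Ffar4, receptors for adenosine and long-chain fatty acids, were above by margins of only 1.06 and 1.19.

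On the insulin side of this list, Pde3b, which degrades cyclic AMP and so carries insulin's brake on lipolysis, was at 468 and 539 CPM in white and 605 and 1095 CPM in brown adipose. Fed liver came next at 210 CPM. Trarg1, which acts in the traffic of the glucose transporter Slc2a4, was at 321 and 290 CPM in white and 501 and 492 CPM in brown adipose, and at most 25.5 CPM elsewhere. Irs3, an insulin receptor substrate, was at 19.9 to 42.1 CPM in adipose and at most 2.10 CPM elsewhere. The member below was Lepr, the leptin receptor, at 7.31 and 7.42 CPM in white and 1.62 and 1.92 CPM in brown adipose against 8.33 to 138 CPM in the other libraries. The lowest of those was fed liver at 8.33 CPM and the highest fasting lung, so Lepr was below by a factor of 1.12, and it was not below under all 3 scalings.

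Of 17 adipocyte hormones and secreted factors tested, Adamts9, Adipoq, Cfd, Nrg4 and Retn were above and 0 were below. The limma fit called 5 (Adipoq, Cfd, Lep, Nrg4 and Retn), and the median log2 fold change was 1.46. Without white adipose the median was -0.60, so the sign of this list's median came with the white libraries. Without liver the median was 2.52, and in the limma fit it was 2.35. Nrg4, a growth factor that brown and white fat release, was at 68.7 and 114 CPM in white and 220 and 196 CPM in brown adipose, with fasting liver at 26.3 CPM as the next. Lep, which encodes leptin, was not among the genes above. It was at 884 and 187 CPM in white and 59.8 CPM in fed brown adipose, but its 4.04 CPM in fasting brown adipose was under the 7.11 CPM of fed muscle. The limma fit nevertheless gave Lep an adjusted p of 0.035.

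Among 22 adipogenic transcription factors Pparg and Ebf2 (9.09%) were above, and the median log2 fold change was 0.46, or -0.06 without brown adipose. This median was 0.27 with fasting libraries alone, 0.28 without spleen, 0.81 with library totals and 0.99 in the limma fit. Pparg was at 217 and 158 CPM in white and 357 and 414 CPM in brown adipose, against 3.16 to 29.6 CPM elsewhere, with fasting heart highest. Its log2 fold change was 4.91 ± 0.67 with an adjusted p of 0.0020 in the limma fit, and 4.68 ± 0.61 with an adjusted p of 0.17 in the edgeR test. Ebf2 was at 62.6 and 49.1 CPM in white and 162 and 138 CPM in brown adipose, with fed muscle next at 26.4 CPM. Cebpa, the partner of Pparg in fat cell formation, overlapped because fasting liver reached 486 CPM, over 3 of the 4 adipose libraries.

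Of 18 genes of fatty acid synthesis, Acaca and Scd1 (11.1%) were above, with 0 limma calls and a median log2 fold change of 1.17 that was 0.22 without brown adipose. Without liver the median was 1.90, and in the limma fit it was 2.44. Acaca, which makes malonyl-CoA, was at 909 and 461 CPM in white and 5191 and 1334 CPM in brown adipose against at most 324 CPM in liver. Fasn, the fatty acid synthase, was at 27142 and 13592 CPM in brown and 5121 CPM in fed white adipose, but 669 CPM in fasting white adipose was under the 1575 CPM of fed liver. Of 18 genes of triglyceride synthesis 1 (5.56%) was above, Dgat1, which adds the third fatty acid, at 154 and 144 CPM in white and 230 and 185 CPM in brown adipose and at most 47.4 CPM elsewhere. Its limma adjusted p was 0.0082. The median of this list was 0.35. It was -0.03 without brown adipose, 0.77 without white adipose, 0.97 without kidney, 0.80 with library totals and 1.77 in the limma fit. Its members summed to 5231 and 4966 CPM in white and 14504 and 15887 CPM in brown adipose, against 5266 and 13601 CPM in fed and fasting liver and 9991 CPM in fasting kidney.

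Among 18 genes of fatty acid uptake and caveolae, Fabp4 and the caveola protein Cavin1 were above, and the median was 1.34, with 1.43 without brown and 1.26 without white adipose. Lpl, which frees fatty acids from lipoproteins, was at 2902 to 5405 CPM in adipose but 5859 CPM in fasting heart. Cd36, the fatty acid carrier of the cell surface, was at 2902 to 3330 CPM in adipose and 4480 CPM in fasting heart. Neither was above, although their medians in the other libraries were 302 and 775 CPM.

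Of 15 thermogenic genes 1, Adrb3, was above. Ucp1 itself was at 3009 and 2436 CPM in brown adipose but at 1.496 and 1.14 CPM in white, about the median of 1.54 CPM in the other libraries. Cidea behaved alike, at 1766 and 1836 CPM in brown and 2.19 and 2.36 CPM in white adipose. The median of this list was 2.07 with both tissues and -1.54 without brown adipose. Subunits of the respiratory chain had a median of 0.24, with 0 of 38 above or below, and a median of -1.84 without brown adipose. This median was 1.05 without white adipose, 0.77 without heart and 0.64 with library totals. Without liver it was 0.15, without spleen 0.004 and without lung 0.005.

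**Figure D3:**
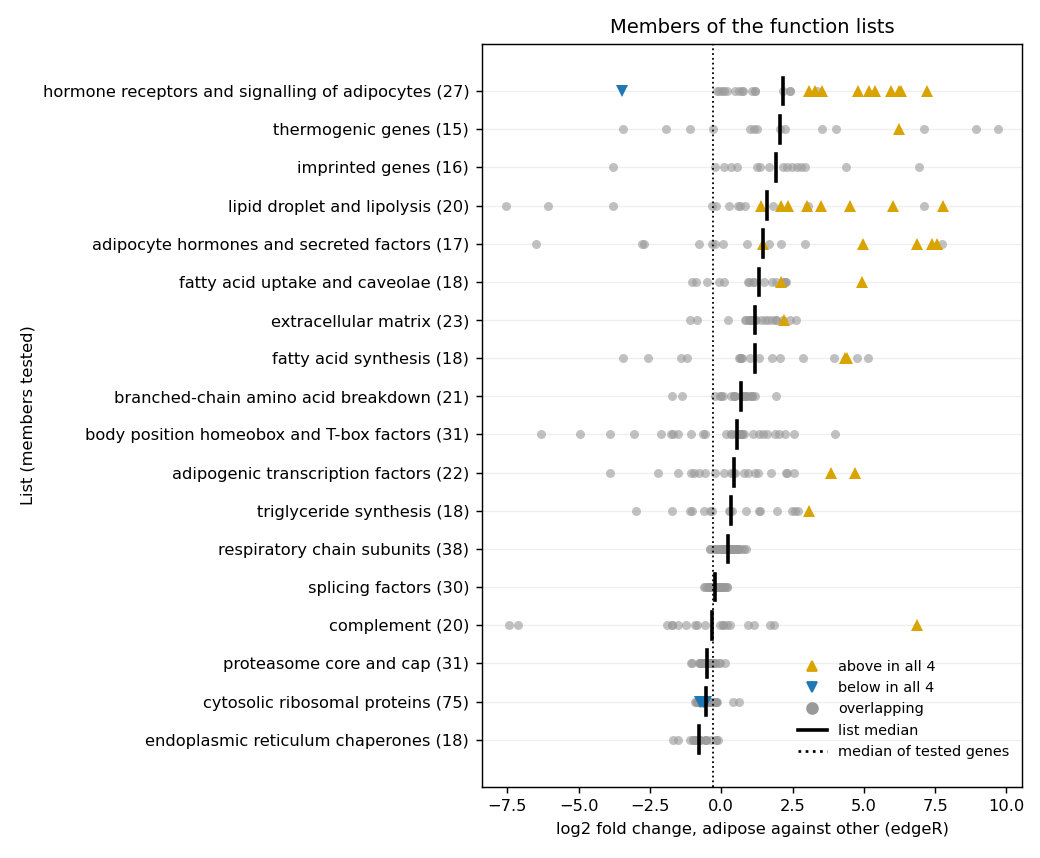
Log2 fold change of the tested members of 18 function lists, adipose against other tissues, in the edgeR fit. Receptors (10 above), lipid droplet genes (8 above) and hormones (5 above) hold most of the triangles for genes above, and the ribosomal proteins hold 6 of the genes below.

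Complement had Cfd alone among 20 genes and a median of -0.31 that turned positive under 5 alternatives, at 0.06 with library totals, 0.28 with tissue terms, 0.42 in the limma fit, 0.38 without brown adipose and 0.88 without liver, and was -2.36 without white adipose. Extracellular matrix had the laminin Lama4 among 23, with 21 positive fold changes and a median of 1.18 that was 0.16 without white adipose. Its members summed to 14695 and 10241 CPM in white but 4486 and 3476 CPM in brown adipose, and brown adipose lay within the range of the other libraries. Breakdown of branched-chain amino acids (21 genes, median 0.70), imprinted genes (16, median 1.92) and homeobox and T-box factors of body position (31, median 0.54) had 0 above and 0 below, which at the shares over all genes is no result about lists of this size. Without brown adipose the median for amino acid breakdown was -0.42, and without white adipose that for body position factors was -0.54 and that for imprinted genes 0.72. For body position factors the median was 1.38 without kidney, 1.71 in the limma fit and 2.07 with tissue terms.

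Other genes called in the limma fit widened the set beyond these lists, and they were chosen after their values were seen. Sik2, a kinase under control of cyclic AMP, had the lowest adjusted p, 2.6e-05. It was at 692 and 662 CPM in white and 702 and 925 CPM in brown adipose, and its level elsewhere varied little, from 40.6 to 85.0 CPM. Of its exonic bases, 1429 overlap Ppp2r1b on the opposite strand. Ntrk2, a neurotrophin receptor, lay at 158 to 321 CPM in adipose and at most 20.7 CPM elsewhere. Aoc3, an amine oxidase of the fat cell surface, lay at 189 to 1060.2 CPM in adipose and at most 16.4 CPM elsewhere. Slc1a3, a glutamate carrier, was at 179 to 360 CPM in adipose against at most 30.7 CPM in fed lung. Mc2r, the receptor for ACTH, was at 3.24 to 15.0 CPM in adipose and at most 0.299 CPM elsewhere. Nat8l, which makes N-acetylaspartate, was at 39.7 to 222 CPM in adipose and at most 5.03 CPM elsewhere. Fcor, a small protein that binds Foxo1, was at 12.1 to 28.6 CPM in adipose and at most 0.854 CPM elsewhere. Arxes1 and Arxes2 are near-identical neighbours on the X chromosome, and the division of their reads is uncertain.

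The 5 genes that the limma fit called outside the genes above were Lep, Klb, Cib2, A530016L24Rik and A830008E24Rik. Klb, the co-receptor for Fgf21, was at 72.4 and 94.8 CPM in white and 105 and 102 CPM in brown adipose. Fasting liver reached 87.4 CPM, while the median of the others was 0.360 CPM. Its log2 fold change was 7.27 in the limma fit, which averages logs, but 2.68 in the edgeR fit, which compares mean levels and so gives liver more weight. Cib2 overlapped through muscle, at 204 CPM in fed muscle against 54.6 to 228 CPM in adipose.

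The levels of the genes above were compared between white and brown adipose. Of the 200 genes above with a mean of at least 10 CPM, 137 differed by no more than 2-fold between the white and the brown mean, 40 were over 2-fold higher in brown and 23 over 2-fold higher in white. The share within 2-fold was 68.5%, against 72.3% of the 9574 tested genes with an adipose mean of at least 10 CPM, and the choice of genes high in all 4 libraries bears on it. The lowest adipose library was a white one in 131 genes and a brown one in 69. The 3 genes furthest toward white were AC087871.1, Retn and Gm454, with log2 ratios of 4.50, 4.04 and 3.73. Ltc4s, the enzyme of leukotriene C4 synthesis, was at 28.8 and 29.6 CPM in white and 5.55 and 4.45 CPM in brown adipose. Furthest toward brown was Ntrk3, a neurotrophin receptor, at 692 and 212 CPM in brown and 14.5 and 19.7 CPM in white adipose, with fed lung next at 6.15 CPM. Rgs7, a regulator of G protein signals, was at 74.4 and 86.3 CPM in brown and 4.82 and 5.24 CPM in white adipose. Slc36a2, a carrier of small amino acids, was at 658 and 774 CPM in brown and 97.6 and 102 CPM in white adipose. Tkt, transketolase of the pentose phosphate pathway, was at 3245 and 1735 CPM in brown and 529 and 262 CPM in white adipose, where the lowest library was close to fed kidney at 232 CPM.

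**Figure D4:**
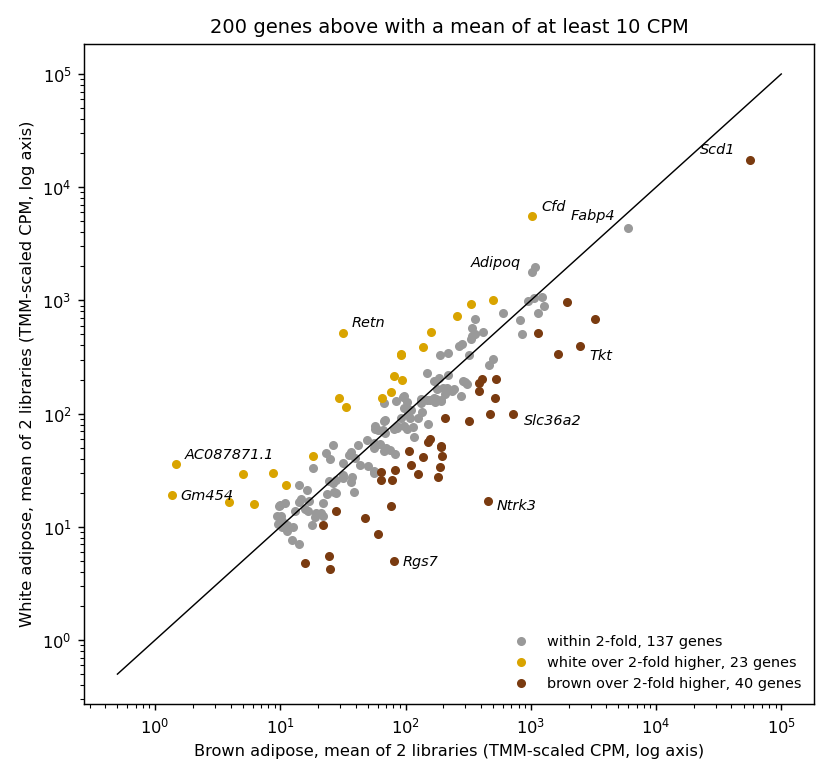
Mean level in white against mean level in brown adipose for the 200 genes above with a mean of at least 10 CPM, in TMM-scaled CPM on log axes, with the line of equal levels. Grey points (137 genes) are within 2-fold, and Retn, Cfd, AC087871.1 and Gm454 lie on the white side while Ntrk3, Rgs7 and Slc36a2 lie on the brown side.

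The tissue closest to fat differed by gene. Among the same 200 genes the highest other tissue was liver in 51, muscle in 48, lung in 35, kidney in 30, heart in 23 and spleen in 13. Among the 17 genes with a margin of at least 10 it was muscle in 12. Fed muscle was the highest other library in 21 of the 72 genes called by limma and fasting muscle in 5. The 10 adipocyte markers summed to 440 CPM in fed and 418 CPM in fasting muscle, and to 471 CPM in fed and 1113 CPM in fasting heart. In kidney, lung, liver and spleen the highest sum was 297 CPM, in fasting liver. The part of fat cells within the muscle and heart samples in these values was not tested.

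Markers of other cell types in the adipose libraries were measured in the same way. Those of skeletal muscle fibres, 8 genes, summed to 145 and 177 CPM in fed and fasting white adipose and to 2488 and 1155 CPM in fed and fasting brown adipose, against up to 277640 CPM in muscle. Those of hepatocytes summed to 62.1 to 150 CPM in adipose and those of cardiomyocytes to 0.964 to 3.82 CPM. B cell markers summed to 268 and 58.9 CPM in fed and fasting white and to 17.4 and 10.5 CPM in brown adipose, of which Ighm gave 262 CPM in fed white adipose. Mesothelial markers summed to 154 and 169 CPM in white and 5.55 and 9.65 CPM in brown adipose. Macrophage markers were at 466 to 578 CPM in white and 115 to 129 CPM in brown adipose, within the range of 96.8 to 1095 CPM in the other libraries. Endothelial markers summed to 642 to 776 CPM in adipose and 282 to 1729 CPM elsewhere, and those of fibroblasts and progenitors to 539 to 1971 CPM and 302 to 1836 CPM. No marker outside the adipocyte list was among the genes above, and of the pancreatic acinar markers Cel and Ctrb1 had 0 counts in adipose. The part of these cells in the genes above was not tested.

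**Figure D5:**
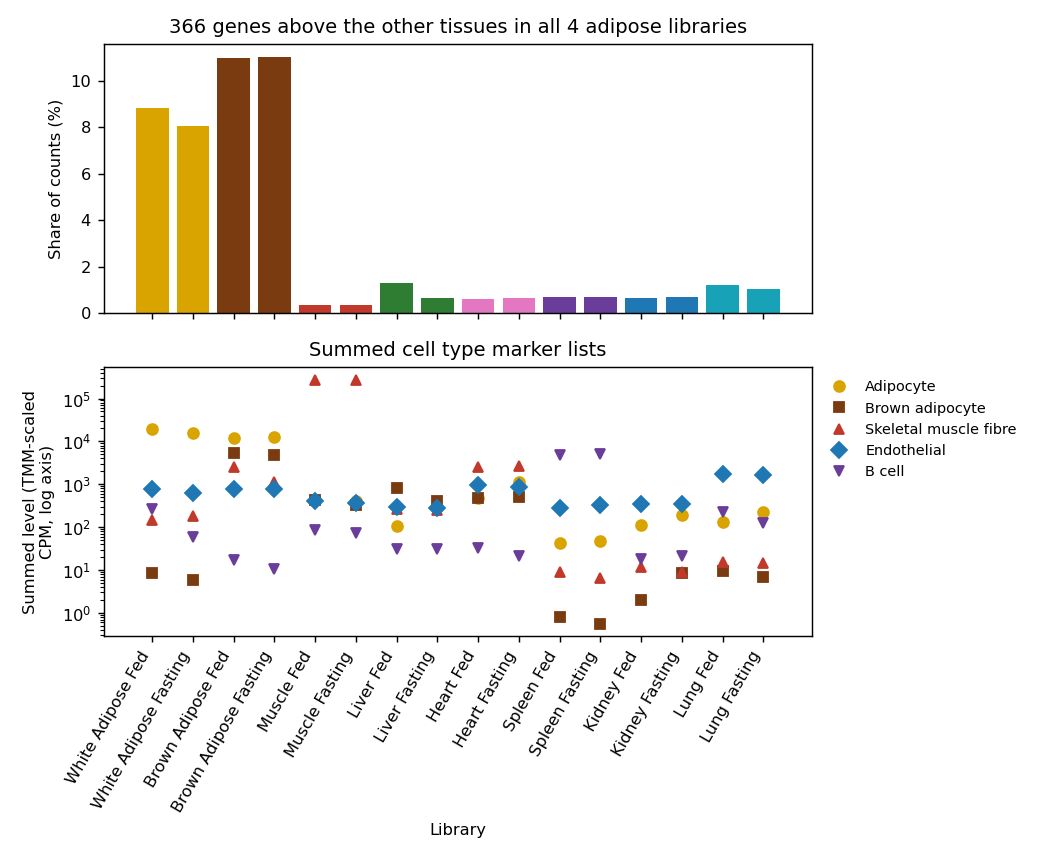
Upper panel, share of all counts held by the 366 genes above in each library, in percent, from 8.04% to 11.1% in adipose and at most 1.31% elsewhere. Scd1 held a large part of it in brown adipose and in fed liver. Lower panel, summed level of 5 marker lists in each library in TMM-scaled CPM on a log axis, where the adipocyte markers lie at 11733 CPM or more only in the 4 adipose libraries. The brown adipocyte markers are highest in brown adipose, at 5428 CPM in fed and 4876 CPM in fasting. They reach 811 CPM in fed liver and 8.34 CPM at most in white adipose.

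Genes below were fewer and had narrower margins, and their number depended on the scaling. Of the 114 genes, 106 were protein coding and 94 had a mean of at least 10 CPM in the other libraries. The lowest other library was at least 2 times the highest adipose library in 6 genes, and the median of this ratio was 1.08. Only 7 of the 114 were also below with library totals and with TPM (Bdh1, Coch, Epop, Gm15880, Myo18a, Pde1c and Tbx20), while 309 of the 366 genes above were above under all 3 scalings. The limma fit called 0 of the 114, with a lowest adjusted p of 0.55. Just inside were Calcrl, Cd2bp2 and Ppfia1, with ratios of 1.0035, 1.0038 and 1.0033, and just outside Nipal3, Zfp710 and Usp39, at 0.9994, 0.9992 and 0.9998.

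Tbx20, a transcription factor of the heart, had 0 counts in all 4 adipose libraries. It was at 219 and 171 CPM in fed and fasting heart, 13.3 and 10.7 CPM in liver, and between 0.0867 and 6.72 CPM in the others. Against a floor of 3 counts in each adipose library, its mean over the 12 libraries was at least 254-fold higher, a mean carried by heart. Bdh1, which makes and uses the ketone body 3-hydroxybutyrate, was at 0.665 and 1.12 CPM in white and 0.926 and 0.548 CPM in brown adipose. It was at 259 and 365 CPM in fed and fasting liver, 151 and 167 CPM in kidney, 33.3 to 52.5 CPM in muscle and heart, and 2.26 to 5.93 CPM in lung and spleen. Its log2 fold change was -6.86 ± 2.30 with an adjusted p of 0.95 in the edgeR test, and 533 of its exonic bases overlap Gm15743 on the opposite strand. Pde1c, a phosphodiesterase, was at 0.299 to 0.822 CPM in adipose and 1.87 to 156 CPM elsewhere.

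The other genes named by the size of the difference were Coch, Ankrd1, Dsc2, Aldh1b1, Nceh1, Slc25a12, Lepr, Itga8, Calcrl, Abtb2, As3mt and Tnfaip2. Coch, an extracellular matrix protein, was at or under 0.156 CPM in adipose and 0.524 to 791 CPM elsewhere, with the highest level in spleen. Ankrd1, a stress protein of heart and muscle, was at 0.0997 to 0.405 CPM in adipose against 0.460 to 2412 CPM elsewhere, and its margin was only 1.14. Nceh1, a hydrolase of cholesterol esters, was at 10.7 and 24.1 CPM in white and 5.90 and 5.34 CPM in brown adipose against 35.97 to 399.96 CPM elsewhere. Slc25a12, the aspartate and glutamate carrier of mitochondria, was at 9.52 to 23.7 CPM in adipose and 27.7 to 749 CPM elsewhere, with muscle highest. Itga8 and Calcrl were highest in lung, at 283 and 1087 CPM, and at 5.32 to 7.21 and 27.5 to 34.7 CPM in adipose. Myo18a, an unconventional myosin, was at 50.6 to 87.4 CPM in adipose and 108 to 676 CPM elsewhere.

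Of 75 cytosolic ribosomal proteins, 6 were below (Rpl5, Rpl8, Rpl18, Rpl34, Rps3 and Rps23), and 2 of 75 had a positive fold change. The median was -0.55 against -0.28 over all genes tested, and without spleen it was -0.34 against -0.21. The margin was lowest for Rps23, at 1.01, and highest for Rps3, at 1.10. None of these 6 was among the 7 genes below under all 3 scalings. Endoplasmic reticulum chaperones had a median of -0.76 with 0 of 18 positive, proteasome subunits -0.50 with 1 of 31 positive, and splicing factors -0.21 with 6 of 30 positive. None of the members of these 3 lists was above or below. Without liver the median of the chaperones was -0.27 against -0.26 over all genes. Without white adipose the medians were -0.18 for proteasome subunits and -0.02 for splicing factors against -0.42 over all genes, and without brown adipose they were -0.95 and -0.39 against -0.41. With library totals the medians were -0.35 for ribosomal proteins, -0.35 for chaperones, -0.01 for proteasome subunits and -0.02 for splicing factors, against -0.02 over all genes.

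Features that the comparison did not use were read from the annotation. The median length of the genes above was 2957 bases against 3224 bases for all genes tested. Chromosome 7 held 31 of them (8.47% against 7.46% of genes tested), chromosome 19 held 23 (6.28% against 3.18%) and the X held 4.92% against 2.98%.

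Start regions of the genes above were searched for motifs of factors known in fat cells. RefSeq windows from 250 bases before to 50 bases after the start (GRCm38.p6) matched 133 of the 200 genes above at 10 CPM or more. The motifs were AGGNCANAGGNCA for Pparg with its partner, TCCCNNGGGA for Ebf factors, TTGCNNAA for C/EBP factors and TATAAA, each on both strands. C/EBP letters were found in 14 of the 133 genes (10.5%) and in 745 of 7468 tested genes with an adipose mean of at least 10 CPM (9.98%), and in 10.8% of all windows. Pparg letters were found in 1 of 133 genes (0.752%) against 0.268% of 7468, Ebf letters in 2 (1.504% against 1.41%) and TATAAA in 8 (6.02% against 8.68%). The windows of Plin1, Cidec and Adipoq are shown, since Plin1 and Cidec hold C/EBP letters and Adipoq, whose level followed that of Plin1 most closely, holds none of the 4 motifs. The sequences run 5′ to 3′ on the strand of the gene, and capitals mark TTGCNNAA.
Plin1, chr7:79732727-79733026, minus strand: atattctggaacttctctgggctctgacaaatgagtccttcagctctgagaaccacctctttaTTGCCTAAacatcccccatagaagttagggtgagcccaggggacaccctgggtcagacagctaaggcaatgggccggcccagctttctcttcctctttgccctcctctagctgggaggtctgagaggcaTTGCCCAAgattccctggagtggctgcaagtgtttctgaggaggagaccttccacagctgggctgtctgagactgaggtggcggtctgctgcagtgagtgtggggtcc
Cidec, chr6:113434715-113435014, minus strand: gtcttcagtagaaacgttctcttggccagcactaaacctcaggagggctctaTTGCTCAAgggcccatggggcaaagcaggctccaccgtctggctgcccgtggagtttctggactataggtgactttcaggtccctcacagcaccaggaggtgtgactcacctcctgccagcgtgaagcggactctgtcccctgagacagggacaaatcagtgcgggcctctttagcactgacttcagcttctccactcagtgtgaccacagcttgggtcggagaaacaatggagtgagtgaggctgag
Adipoq, chr16:23146286-23146585, plus strand: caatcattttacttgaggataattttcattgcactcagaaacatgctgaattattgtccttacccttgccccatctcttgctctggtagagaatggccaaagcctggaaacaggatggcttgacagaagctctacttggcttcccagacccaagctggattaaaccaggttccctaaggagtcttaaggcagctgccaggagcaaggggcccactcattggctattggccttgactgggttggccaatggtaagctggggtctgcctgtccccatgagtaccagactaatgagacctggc
In Plin1 the matches began 187 and 58 bases before the start, and in Cidec 198 bases before it. A further Cidec window had no match. A match is a description of the letters and not of binding, and the absence of one says nothing about the factor.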

How the data were processed

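The deposited data were a table of raw read counts per gene for 16 libraries, 1 per tissue and treatment. Per the labels, the authors isolated total RNA, made strand-specific libraries and sequenced paired ends of 100 bases. The authors then trimmed reads, aligned them to GRCm38 with HISAT2 and counted them with featureCounts on GENCODE vM24. The strand setting of the counting, and whether reads or pairs were counted, are not given in the sources used here. The deposited table also gave the gene length.

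Gene symbols and biotypes came from GENCODE vM21 on the same build, and gene positions, strands and exons from the deposited table. Counts of the fed and fasting library of each tissue were summed, filtered with filterByExpr, scaled by TMM and tested with edgeR 4.0.16 (quasi-likelihood test, 2 tissues against 6, Benjamini-Hochberg adjusted p under 0.05). Residual degrees of freedom of this edgeR fit were 6, which does not apply to the limma fit. A limma 3.58.1 fit to the 16 libraries, with the tissue as a random block (correlation 0.90), and DESeq2 1.42.0 were alternatives, with other scalings, filters and each tissue left out. R 4.3.3 and Python 3.11.15 were used. The edgeR fit on tissue sums and the edgeR fit with a term for each tissue were tested on simulated data. The limma and DESeq2 fits were not. The edgeR fold change compares mean levels, so that 1 tissue with a high level can set it, and the limma fold change averages logs.

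Named genes were the 15 genes above with the largest fold change, the 10 highest per kilobase, the 15 genes below with the largest difference, the 3 just inside and outside each limit, and the 3 most like each marker. The rule asked for an adjusted p under 0.05 in the first 2 sets. No gene met it, so it was dropped after the data were seen. Members and lists were chosen with earlier results of these data known. Libraries had 14245178 to 36069968 counts, and the floor of 3 counts and all levels cover counting error only.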

Additional observations from a re-analysis of the deposited data

How the results depend on the processing

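The libraries carry no replicate numbers. The fed and the fasting mouse group, shared by all tissues, entered the fits to the 16 libraries as a term, so that these pair the libraries by mouse group. Each tissue and treatment was 1 pool of 3 mice, so no spread between animals was measured. The edgeR test on tissue sums called 0 genes higher and 0 lower with fed libraries alone, fasting libraries alone, library totals, TMMwsp factors and no filter. With a tissue other than adipose left out it called 0 to 1 higher, the 1 without liver, and 0 lower. More genes were called by DESeq2 (183 higher, 57 lower), with each of the 16 libraries as a unit (338 and 13), and with a term for each tissue (5080 and 4694), where the spread is only that between the fed and the fasting library. That last count was 8539 higher with library totals. The limma fit with the tissue as a block called 72 higher and 108 with library totals. It called 25 to 73 with a tissue other than adipose left out, 25 without spleen and 45 without heart. The alternatives with a tissue left out or other totals in the limma fit, and other totals in the fit with tissue terms, were chosen after seeing the data.

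The 366 genes above became 559 with library totals, 697 with TPM, 120 with a margin of at least 2-fold, and 442 to 1238 with a tissue left out (1238 without white adipose, 1057 without brown adipose). The 114 genes below became 16 with library totals, 10 with TPM and 7 with a 2-fold margin, a count that includes Tbx20 at 0. They became 147 to 713 with a tissue left out (713 without white adipose, 585 without brown adipose, 222 without lung, 206 without liver and 183 without muscle). Leaving a tissue out removes a condition from the definition, so these counts can only grow. The median log2 fold change of all genes was -0.28 with TMM and -0.02 with library totals. Of 612 values of 36 named genes under the alternatives, 0 reversed and 93 passed the threshold. Of 306 list medians 12 had the other sign, in 8 lists, given beside those lists.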
